A study of Mus musculus with 2197 samples.

Results

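The cells described here are the late Ins2-high beta cells of the mouse embryonic pancreas, single cells of the endocrine lineage sorted on embryonic days E16.5 and E17.5. A cell was included when Ins2 held at least 10000 CPM (its share of the counted reads in parts per 1000000, without the ERCC spike-in RNAs) and Gcg, the glucagon gene, under 1000 CPM. Of 255 cells in those sorts 87 met both thresholds, 39 at E16.5 and 48 at E17.5. The whole Smart-seq2 series held 2195 cells. The cells were thus chosen by their measured Ins2 and Gcg levels, which are given as description and were not tested.

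The study mapped lineages of the mouse pancreas with Smart-seq2, which reads whole transcripts of cells sorted into plates. The late cells came from embryos with GFP knocked in at Neurog3, the gene of the transcription factor that commits pancreatic progenitors to the endocrine fate, and were sorted as GFP-positive without a split by brightness. They are compared with 36 of 39 E15.5 cells sorted as RFP-positive from Ins1-RFP embryos that met the same thresholds, and with the 168 other cells of their own sorts. No treatment is named for these groups, and strain, sex and the state of the other Neurog3 allele are not given in the sources used here. Cells that share a number in their sample titles (before the cell's own) form a set, the unit of replication. There were 4 sets at E16.5, 4 at E17.5 and 2 at E15.5. The labels do not say whether a set is a litter, a sort or a plate, so a p-value here weighs only how sets differ, and that spread may be technical.

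Beta cells make insulin, which mice encode in a pair of genes, Ins1 and Ins2, and release it with amylin, the product of Iapp. Glucose enters mouse beta cells through the transporter GLUT2, encoded by Slc2a2, and the transcription factors Pdx1 and Nkx6-1 keep beta cell identity. Mafa, a transcription factor of mature beta cells, and the maturation gene Ucn3 are known to come on mainly late in gestation and after birth.

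The 87 cells held 366140 to 1519620 counts each (median 971151) over 6278 to 9907 detected genes (median 7597). ERCC took 0.823% to 10.45% of the counts of a cell (median 2.24%). Sets 1 and 2 of both late days differed from sets 3 and 4. The median ERCC share of the selected cells was 2.01% and 3.59% in E16.5 sets 1 and 2 against 1.24% and 1.26% in sets 3 and 4. At E17.5 the 4 medians were 3.85%, 3.14%, 1.09% and 1.23%. Median counts per cell followed the same split, with 1182800 and 1281130 against 763326 and 746781 at E16.5, and 851864 and 1104890 against 686749 and 552080 at E17.5.

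Ins2 ran from 10120 to 433631 CPM over the 87 cells, with a median of 70125 CPM. Of the 87 cells 74 held 20000 CPM or more, and the other 13 lay between the threshold and 20000 CPM. The lowest cells inside stood at 10120 and 10184 CPM, and the highest outside with low Gcg stood at 9965 and 4154 CPM. Only 9 cells with low Gcg held between 1000 and 10000 CPM, and 153 of the 255 held under 1000 CPM. Gcg was at most 120 CPM in the selected cells. A group of 3 cells had both hormones, with Gcg at 104424, 167366 and 260211 CPM and Ins2 at 15756, 119423 and 20471 CPM. All 3 were from E17.5, 2 in set 2 and 1 in set 3, and the Gcg threshold left them out.

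**Figure D1:**
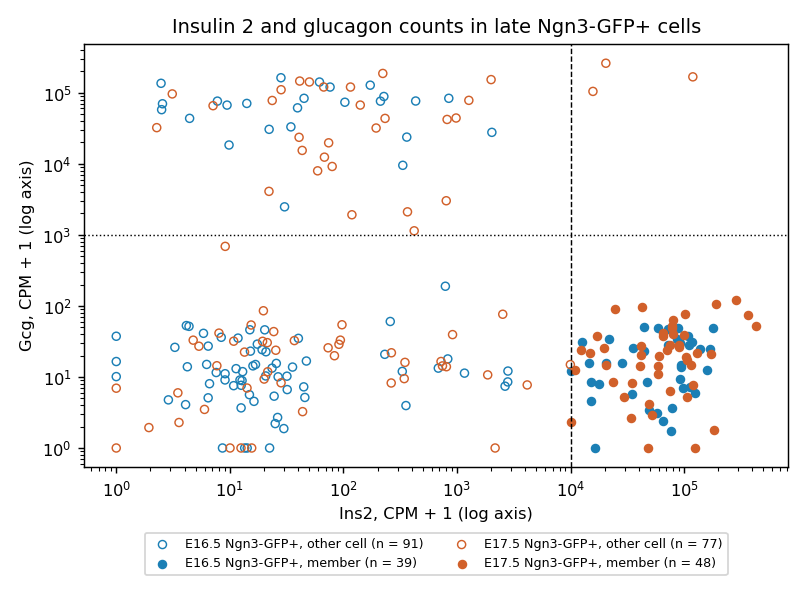
Ins2 (x axis) against Gcg (y axis), both as CPM + 1 on log axes, in each of the 255 Ngn3-GFP+ cells of E16.5 (blue) and E17.5 (orange). Filled points are the 87 selected cells, open points the other 168, and the lines mark 10000 CPM of Ins2 and 1000 CPM of Gcg. The selected cells lie at the lower right, with Gcg at most 120 CPM and no gap to the nearest cell outside (9965 CPM of Ins2), and 3 E17.5 cells lie high on both axes.

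The share of Ins2-high cells varied widely between sets of one day. At E16.5 it was 35.1% (13 of 37, 95% Clopper-Pearson interval 20.2 to 52.5%), 76.5% (13 of 17, 50.1 to 93.2%), 19.5% (8 of 41, 8.82 to 34.9%) and 14.3% (5 of 35, 4.81 to 30.3%). At E17.5 it was 29.4% (10 of 34, 15.1 to 47.5%), 50% (20 of 40, 33.8 to 66.2%), 13.6% (3 of 22, 2.91 to 34.9%) and 51.7% (15 of 29, 32.5 to 70.6%). The sets of both days overlapped. The mean was 36.4% ± 28.2 (SD, n = 4) at E16.5 and 36.2% ± 18.1 (SD, n = 4) at E17.5, a difference of -0.158 percentage points (two-sided exact permutation test, p = 1.00, smallest possible p 0.0286). Without E16.5 set 2 the difference was 13.2 points (exact p = 0.400). The intervals cover counting error only.

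The label of beta cells held for most of the markers. Ins1 was at 100 CPM or more in 82 of 87 cells (94.3%), with a median of 28637 CPM, against 40 of the 168 other cells. Iapp reached 1003 to 81328 CPM (median 22835), so that all 87 cells exceeded 100 CPM, but so did 107 of the other cells (median 850 CPM). Slc2a2 exceeded 100 CPM in 75 cells (86.2%, median 439 CPM) against 19 of the other cells. Pdx1 did so in 83 cells (95.4%, median 367 CPM) against 77 of the other cells (median 68.7 CPM). Nkx6-1 was the weakest marker, at 100 CPM or more in 54 cells (62.1%, median 145 CPM) and detected in 98.9%. Of the other cells 30 held Nkx6-1 at 100 CPM or more.

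Nkx6-1 followed the split of the sets. Summed over the selected cells of a set, it stood at 249 and 148 CPM in E16.5 sets 1 and 2 and at 65.1 and 35.4 CPM in sets 3 and 4. At E17.5 it was 306 and 170 CPM in sets 1 and 2 and 73.0 CPM in set 4. The E15.5 sets, 220 and 184 CPM, lay within the range of sets 1 and 2. The share of cells at 100 CPM or more was 100%, 76.9%, 25% and 0% over the E16.5 sets. ERCC share and counts per cell moved with these values, and their part in them was not tested.

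Per length, the insulin genes were among the most abundant of the selected cells. Ins2 ranked first of all genes, with a mean of 183670 ± 54568 TPM (SD over 8 sets, transcripts per 1000000, computed from the counts and the gene lengths). Yam1 ranked 2, with 84656.5 ± 39992 TPM, above Ins1, which ranked 3 with 53286 ± 20120 TPM. Iapp ranked 4, with 48061 ± 12979 TPM, and RP23-8J15.1 ranked 5, with 10772 ± 1589 TPM. Nnat, an imprinted gene whose product acts in the endoplasmic reticulum, ranked 6, with 10520 ± 3691 TPM. The 8 peptide hormone genes together took 9.06% to 25.8% of a set's counts. Ins2 alone took 6.39%, 9.59%, 5.92% and 5.20% of the counts in the E16.5 sets and 4.59%, 13.3%, 3.53% and 6.41% in the E17.5 sets. The E15.5 sets, at 6.02% and 7.01%, fell inside that range. In E17.5 set 2 a single cell gave 88.7% of its counts to its 10 highest genes, with Ins2 at 433631 and Ins1 at 378685 CPM.

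The promoter of Ins1, 250 bases before the start of the gene in the RefSeq table (build GRCm38.p6, plus strand), is shown because Ins1 was the marker that split the selected cells. It lies at chr19:52264047-52264296, just before the gene at chr19:52264297-52265476 in the GENCODE M21 annotation (mm10), which puts Ins2 at chr7:142678656-142743381 on the minus strand. The promoter of Iapp at chr6:142298175-142298424 (plus strand) is shown beside it because all 87 cells expressed Iapp. Capitals mark TAAT and its reverse complement ATTA, the core letters read by homeodomain factors such as Pdx1 and Nkx6-1, and CATCTG and its reverse complement CAGATG, a form of the E-box read by Neurod1 and its partners.
Ins1: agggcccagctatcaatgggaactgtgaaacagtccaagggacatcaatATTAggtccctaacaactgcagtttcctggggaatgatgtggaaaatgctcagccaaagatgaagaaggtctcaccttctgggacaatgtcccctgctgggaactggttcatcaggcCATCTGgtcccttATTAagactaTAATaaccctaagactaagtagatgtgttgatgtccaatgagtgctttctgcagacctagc
Iapp: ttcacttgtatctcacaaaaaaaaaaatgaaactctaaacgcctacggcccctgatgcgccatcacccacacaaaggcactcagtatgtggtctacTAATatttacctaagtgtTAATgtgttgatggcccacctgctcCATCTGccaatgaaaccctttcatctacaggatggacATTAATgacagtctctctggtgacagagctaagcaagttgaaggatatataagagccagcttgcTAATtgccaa
TAAT or ATTA occurred 3 times in the Ins1 promoter and 5 times in that of Iapp, counting a pair that overlaps as ATTAAT, and CATCTG or CAGATG once in each. Of 32851 promoters in the table, 54.9% held TAAT or ATTA and 14.4% held CATCTG or CAGATG in the same 250 bases. These matches describe the letters in the windows and say nothing of binding. The windows were placed by annotated starts, and whether the cells use those starts was not tested. Bases past an annotated start were not counted.

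Ins1 was low in a small group of the selected cells. In 8 of the 87 cells it stood under 1000 CPM, between 2.82 and 327 CPM, while Ins2 ran from 10120 to 65814 CPM. The next cell above them held 1085 CPM of Ins1. These 8 cells were 4 of E16.5 and 4 of E17.5, spread over 6 sets. None of the 36 E15.5 cells, which were sorted on the Ins1 reporter, was under 1000 CPM, and 0 of 36 allows a share of up to 8.33%, which covers counting error only and treats the cells of 2 sets as independent. In the lowest cell, of E16.5 set 1, Ins1 had 3 reads against 10850 of Ins2. The insulin genes are close copies, and how shared reads were counted is not given in the sources used here, but in that cell at most 3 reads of Ins2 can have been counted as Ins1.

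The 8 Ins1-low cells were set beside the other 79 as description, because the split was made after their values were seen. Iapp was present in all 8, with a median of 16383 against 24641 CPM. Npy, the gene of neuropeptide Y, was at most 0.980 CPM in the 8 cells and at 100 CPM or more in 32 of the 79. Pdx1 had a median of 614 against 336 CPM. Genes of endocrine precursors were looked at too. Fev, a transcription factor of late precursors, was at 100 CPM or more in 3 of 8 against 5 of 79, and Pax4, a factor needed for beta cell formation, in 2 of 8 against 1 of 79. Neurog3 was at most 32.9 CPM in the 8 cells. Ins2 itself was lower, with a median of 21114 against 74436 CPM.

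The reverse pattern also occurred. In 8 of the 87 cells Ins1 exceeded Ins2 in CPM. Among the cells outside the selection, 11 held at least 1000 CPM of Ins1, 8 of them with Gcg under 1000 CPM. In 2 cells of E17.5 set 1 Ins1 stood at 18757 and 6326 CPM, while Ins2 stood at 27.3 and 12.47 CPM and Iapp at 33644 and 8743 CPM. The threshold on Ins2 left these cells out. Counted per length over a whole set, Ins1 gave 16.6% to 29.2% of the insulin reads in the 8 late sets, and 19.7% and 25.8% in the E15.5 sets.

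**Figure D2:**
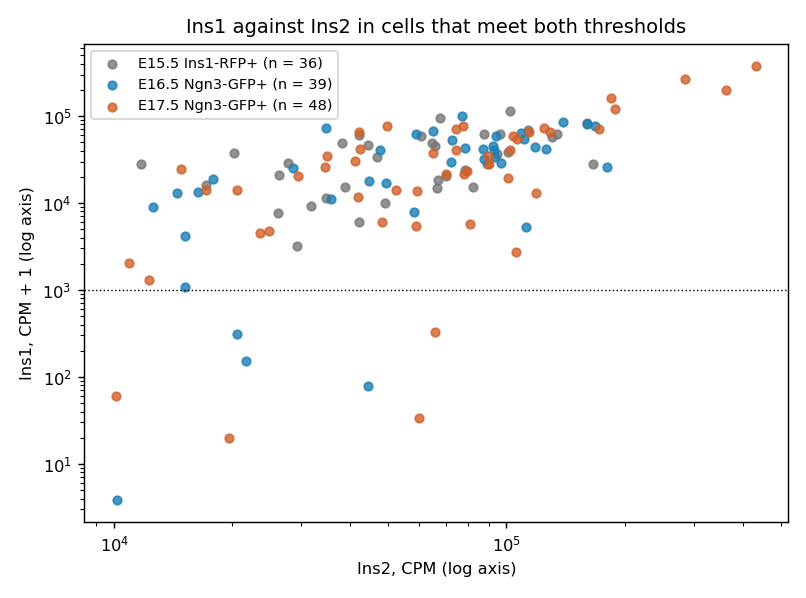
Ins1 (y axis, CPM + 1) against Ins2 (x axis, CPM), both on log axes, in the 36 E15.5 Ins1-RFP+ cells (grey) and the E16.5 (blue, n = 39) and E17.5 (orange, n = 48) Ngn3-GFP+ cells that met both thresholds. The dotted line marks 1000 CPM of Ins1, under which lie 8 late cells and none of the E15.5 cells.

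Of the transcription factors, Mafa was never above 12.1 CPM and was at 0 in 71 cells. A count of 0 of 87 cells at 100 CPM or more allows a share of up to 3.45%, again for counting error only, over cells of 8 sets that are not independent draws. Pax6 (98.9% of cells, median 488 CPM), Neurod1 (94.3%, 396 CPM) and Isl1 (90.8%, 324 CPM) were detected at 100 CPM or more in nearly all cells. These 3 are general islet factors, and their medians in the other cells of the sort were 476, 331 and 572 CPM. Of the 18 beta cell transcription factors on the list, 14 had a mean of at least 50 CPM in the selected or the other cells. Among these 14, 0 were higher by a log2 ratio of 2 or more in each of the 6 sets with at least 5 cells on both sides, where 0.302% of all genes at that level were.

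Genes of glucose sensing were partly in place. G6pc2, the islet glucose-6-phosphatase, was at 100 CPM or more in 78 cells (89.7%, median 551 CPM). Abcc8, the sulfonylurea receptor of the ATP-sensitive potassium channel, was at that level in 86 cells (median 1268 CPM). Kcnj11, the pore of the same channel, was at that level in 5 cells (5.75%, median 16.7 CPM). Slc30a8, the zinc transporter of insulin granules, reached it in 81 cells (median 620 CPM), but in 75% of the E15.5 cells (median 240 CPM). Hk1 and Slc16a1, which mature beta cells are known to keep off, were at most 2.70 and 1.48 CPM. Ucn3 was at 100 CPM or more in 8 cells (9.20%), with a maximum of 478 CPM, and in 13.9% of the E15.5 cells.

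Genes of the secretory machinery were highly expressed, those of hormone granules also in the other cells of the sort. The prohormone convertase genes Pcsk1 and Pcsk2, whose products cut proinsulin, had medians of 1026 and 2628 CPM, and Chga and Chgb, which encode granule proteins, of 2767 and 1440 CPM. The 15 genes of prohormone processing and granules summed to a median of 17000 against 12793 CPM in the other cells. Of 14 at 50 CPM or more, 0 were higher by a log2 ratio of at least 2 in each of 6 sets. Of all genes at that level 0.302% were, and the median log2 ratio of these 14 was 0.47. Of the 24 genes of protein folding and the unfolded protein response, 18 were at 100 CPM or more in over 50% of the cells. The chaperone gene Hspa5 had a median of 3784 CPM against 830 CPM in the other cells of the sort, and the disulfide isomerase gene Pdia3 one of 2856 against 933 CPM. Ero1lb, the oxidase that serves proinsulin folding, was at 1147 against 48.3 CPM. By contrast, the stress effectors Ddit3, Trib3 and Chac1 reached 100 CPM in 2, 0 and 0 cells.

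Other islet peptides were detected in many of these cells. Pyy, the gene of peptide YY, was at 100 CPM or more in 50 cells (57.5%), at 1000 CPM or more in 17, and at 34307 CPM in the highest. Of the other cells of the sort 104 (61.9%) reached 100 CPM of Pyy, with a median of 1072 against 203 CPM in the selected cells. Npy reached 100 CPM in 32 cells (36.8%), with a maximum of 7750 CPM, against 1 of the 168 other cells. Of the 36 E15.5 cells 22 (61.1%) did so, with a median of 457 against 19.4 CPM in the late cells. Ppy, the gene of pancreatic polypeptide, did so in 10 cells (11.49%, maximum 7740 CPM) and Sst, the somatostatin gene, in 6 (6.90%, maximum 6360 CPM). Ghrl, the ghrelin gene, was at most 56.3 CPM. Neither Ppy nor Sst was typical of the cells, since their medians were 3.40 and 2.13 CPM.

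**Figure D3:**
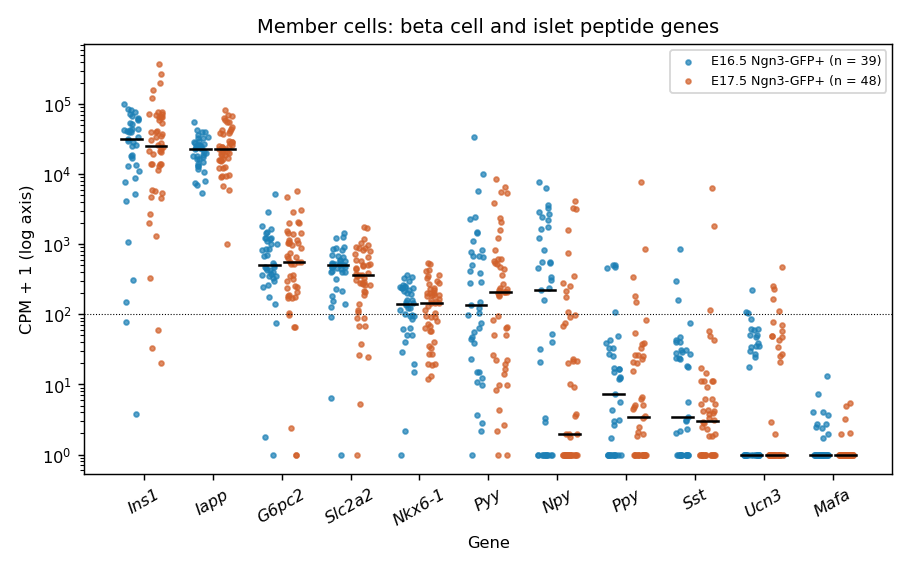
Level of 11 genes (x axis) as CPM + 1 on a log axis (y axis) in each of the 39 E16.5 (blue) and 48 E17.5 (orange) Ins2-high cells, with black bars at the medians and a dotted line at 100 CPM. Iapp lies above 100 CPM in every cell, Npy and Pyy spread from 0 to 7750 CPM and beyond, and Mafa stays at or under 12.1 CPM.

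Lists of duct and precursor genes were partly expressed in these cells. Of the 14 duct genes, 4 or more were at 100 CPM or more in 38 of the 87 cells, and the list summed to a median of 1429 CPM against 1585 CPM in the other cells of the sort. The epithelial genes Krt7, Krt18 and Cdh1 were the most frequent, at 100 CPM or more in 87, 76 and 84 cells, while Sox9, a factor of progenitor and duct cells, was so in 18 and Cftr, the chloride channel gene of ducts, in 0. Of the 18 progenitor and precursor genes, 4 or more were at that level in 39 cells, with a median sum of 2458 against 2135 CPM. In 10 duct and 13 precursor genes at 50 CPM or more on one side, the median log2 ratios to the other cells were -1.29 and -1.25. The precursor list includes Chgb, which all 87 cells held at 100 CPM or more (median 1440 against 533 CPM in the other cells). Vwa5b2, also on it, was at that level in 86 cells. Hes6, a Notch pathway gene on it, was so in 48 cells (55.2%) against 82 of the 168 other cells.

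Markers of cycling cells and of Neurog3-expressing precursors were at 100 CPM or more in few cells. Mki67, a marker of cycling cells, was at 100 CPM or more in 1 cell, and Neurog3 in 1 cell of E16.5. The cell with Mki67 (221 CPM), of E17.5 set 2, also held Top2a, a mitotic gene, at 477 CPM and was the only one with 4 genes of the G2/M list at 100 CPM or more. The same cell was the only one with 4 acinar markers at that level, with the digestive enzyme gene Ctrb1 at 3868 CPM and the acinar list summing to 9576 CPM. Over the 87 cells the acinar sum ran from 0 to 9576 CPM (median 71.1). Bhlha15, a transcription factor of secretory cells on that list, was at 100 CPM or more in 24 cells (27.6%) against 16 of the 168 other cells. The leukocyte sum was at most 300.0 CPM, with the complement gene C1qa at 100 CPM or more in 23 cells (26.4%), the mesenchyme sum at most 93.7 CPM and the erythroid sum at most 42.7 CPM. The serotonin genes Tph1 and Tph2, known from beta cells in pregnancy, were at most 0.995 and 107 CPM.

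Against the 168 other cells, the thresholds on Ins2 and Gcg define the contrast, so ratios are given by set with no test. The other cells were a mixture, of which 47 held Gcg, 11 Sst and 9 Ghrl at 10000 CPM or more, and 28 Neurog3 at 100 CPM or more. Among 4635 genes with a mean of at least 50 CPM on one side, 14 (0.302%) were higher by a log2 ratio of at least 2 in each of 6 sets and 35 (0.755%) were lower. After Ins2, the largest median log2 ratio was that of Npy, 7.04, with means of 602 ± 569 against 3.52 ± 3.58 CPM (SD, n = 6). Ins1 followed with 6.48. Derl3, which acts in the degradation of misfolded proteins of the endoplasmic reticulum, had a median log2 ratio of 4.62, with 213 ± 138 against 8.30 ± 7.71 CPM. Nnat had 4.14, Slc2a2 4.11, the granule docking gene Sytl4 3.77 and G6pc2 3.45. Tmem215 had 4.25 and P2ry1, a purine receptor gene, 4.14.

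Of the 35 genes that met the rule as lower, 6 were on the alpha cell list, 1 on the delta cell list and 2 on the epsilon and PP cell list. Hhex, a factor of delta cells, stood at 5.90 ± 13.98 against 246 ± 120 CPM (SD, n = 6). Spp1, a gene of duct and precursor cells, had a median log2 ratio of -7.07. Of the alpha cell list 6 of 11 genes at 50 CPM or more met the rule as lower, and of the beta cell maturation list 6 of 16 met it as higher. The alpha cell list includes Gcg, which the selection kept under 1000 CPM, so for Gcg the outcome was set by the selection. The folding list had 1 of 20 as higher and a median log2 ratio of 1.55, against -0.20 for all 4635 genes.

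Within the 87 cells, the genes that varied most like Ins2 were ranked by Spearman's rho over cells, with the hormone genes left out of the totals, as description. What the cells of a set share is not given in the sources used here, and the values of a cell share its total counts. Ins1 had a rho of 0.72 (0.45 to 0.83 within the 5 sets of at least 10 cells), the granule gene Scg2 0.70, G6pc2 0.64 and Npy 0.63. Tspan13 (0.61) and Tmem215 (0.60), which were on no list, came next, then Pdia3 (0.57, 0.30 to 0.82 within sets), Nnat (0.56) and Pdia6 (0.56, -0.08 to 0.81 within sets). Iapp had 0.49. Pdx1 ran the other way, at -0.37 (-0.59 to -0.13 within sets). The median rho was 0.27 over 20 folding genes, -0.11 over 13 beta cell transcription factors and -0.02 over all 7309 genes. The ERCC share of a cell had a rho with Ins2 of -0.26 to -0.76 within sets, and its part in these values was not tested.

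The first comparison asked whether beta cells of E17.5 differed from those of E16.5. Counts were summed over the selected cells of each set with at least 5 of them, which left 4 E16.5 and 3 E17.5 sets (E17.5 set 3, with 3 cells, was dropped). By edgeR's quasi-likelihood test with Benjamini-Hochberg adjustment, 0 of 14121 genes (0%) passed an adjusted p of 0.05. At an unadjusted p under 0.05, 485 genes were higher and 377 lower at E17.5. DESeq2 called 35 genes (0.248%), 16 higher (0.113%) and 19 lower (0.135%), of which 4 were on the gene lists, and limma called 0. In simulated counts edgeR called 46.3% of genes changed by a log2 of 2 and 2.99% of those changed by a log2 of 1, so that most changes of that smaller size were not detectable here.

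The insulin and identity genes did not pass, and their intervals were wide. Summed Ins1 was 41435, 41970 (sets 1 and 2), 22912 and 24020 CPM (sets 3 and 4) at E16.5 and 25235, 84036 and 22217 CPM (sets 1, 2 and 4) at E17.5. Only E17.5 set 2 stood above every E16.5 set. The log2 fold change of Ins1 was 0.51 ± 0.47 (SE, 95% interval -0.54 to 1.55, adjusted p = 0.951, edgeR), and it was -0.54 without E17.5 set 2. Iapp gave 0.25 ± 0.32 (-0.46 to 0.97, adjusted p = 0.976, edgeR), and -0.33 without that set. Slc2a2 gave 0.07 ± 0.21 (-0.40 to 0.54, adjusted p = 0.988, edgeR) and Nkx6-1 0.55 ± 0.58 (-0.73 to 1.83, adjusted p = 0.968, edgeR). With 1 set left out Nkx6-1 ran from 0.084 (without E17.5 set 1) to 1.09 (without E16.5 set 1). It was higher at E17.5 in each of the 3 set numbers fitted on both days, but the labels do not pair equal numbers. With the split of the sets as a term Nkx6-1 was at 0.38 ± 0.26 (adjusted p = 1.00, edgeR). That fit took in E17.5 set 3, with 3 cells, and left out the E15.5 sets. Its value thus differs from the main fit in samples as well as in the term.

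Chgb, which encodes the granule protein chromogranin B, was picked from the lists because it separated the days. It stood at 2411, 2333, 3005 and 2778 CPM in the E16.5 sets and at 1346, 1513 and 1296 CPM in the E17.5 sets. All E17.5 sets lay below all E16.5 sets, as in 6.78% of all genes tested in either direction. Since Chgb was picked by it, this separation is no test of the day. The log2 fold change was -0.91 ± 0.19 (SE, 95% interval -1.33 to -0.49), with an adjusted p of 0.808 by edgeR and 0.000663 by DESeq2. Within sets 1 and 2 it was -0.71.

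Slc38a5, which encodes an amino acid transporter, was picked for separating the days in the same way. It stood at 1888, 1382, 1191 and 1058 CPM at E16.5 and at 254, 599 and 699.5 CPM at E17.5. Its log2 fold change was -1.37 ± 0.37 (SE, 95% interval -2.18 to -0.55), with an adjusted p of 0.808 by edgeR and 0.0180 by DESeq2. Slc38a5 was on the alpha cell list, yet 80 of the 87 cells held it at 100 CPM or more. Peg10, an imprinted gene on that list, stood at 20.2, 0, 66.7 and 51.98 CPM at E16.5 and at 0, 0.367 and 1.04 CPM at E17.5. The sets overlapped, and 4 of the 87 cells held 100 CPM or more. Its log2 fold change was -6.15 ± 1.90 (adjusted p = 0.808, edgeR) and -6.21 by DESeq2 (adjusted p = 0.00933).

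Npy was low in 2 of the 3 E17.5 sets. Summed Npy was 1504, 872, 947 and 391 CPM at E16.5 and 36.9, 692 and 39.8 CPM at E17.5, so that 1 E17.5 set overlapped the E16.5 range. The share of cells at 100 CPM or more was 61.5%, 46.2%, 62.5% and 40% in the E16.5 sets and 10%, 40%, 0% and 13.3% in the E17.5 sets. A log2 fold change of -1.71 ± 0.94 was fitted (SE, 95% interval -3.77 to 0.35, adjusted p = 0.852, edgeR), and it lay between -4.67 and -1.18 with 1 set left out.

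Nr4a1, an immediate early gene, had 66.8, 69.6 and 7.29 CPM at E17.5 against at most 1.17 CPM at E16.5. That level rested on 3 of 48 cells at 100 CPM or more, the highest with 1057 CPM. Its log2 fold change of 6.14 ± 1.09 had an adjusted p of 0.808 by edgeR and 3.57e-07 by DESeq2. By limma on the mean log2(CPM + 1) per cell the difference was 1.30 (adjusted p = 0.662).

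By list, edgeR called 0 members in each of the 23 lists in this comparison. The median log2 fold change was 0.18 over 18 beta cell transcription factors, -0.27 over 21 maturation genes, -0.14 over 24 genes of glucose sensing and secretion and -0.15 over 24 folding genes, against 0.05 over all genes tested. The largest list medians, 2.62 over 6 acinar genes and 1.45 over 12 G2/M genes, stood beside the 1 cell of E17.5 set 2 that held both kinds of marker, whose part in them was not tested.

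The second comparison set the late cells against the E15.5 Ins1-RFP+ cells that met the same thresholds. Day and reporter cannot be told apart in it, and it used the same 7 late sets against 2 E15.5 sets. The E15.5 sets had median ERCC shares of 3.06% and 3.67% and median counts per cell of 925378 and 1283190. These were nearer to late sets 1 and 2 than to late sets 3 and 4, and their part in the differences was not tested. By edgeR 0 of 14121 genes (0%) passed, with 200 higher and 261 lower in late cells at an unadjusted p under 0.05. DESeq2 called 24 genes (0.170%), 21 higher (0.149%) and 3 lower (0.0212%), of which 1 was on the gene lists, and limma 3 (0.0212%), all lower. In simulated counts edgeR called 37.3% of genes changed by a log2 of 2, again only among genes above a minimum mean level.

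None of the core beta cell genes passed, and their intervals bound the difference from E15.5. Iapp stood at 15423 and 19864 CPM at E15.5 and between 16265 and 38776 CPM in the 7 late sets. Its log2 fold change was 0.51 ± 0.35 (SE, 95% interval -0.27 to 1.29, adjusted p = 1.00, edgeR). Ins1 gave 0.26 ± 0.51 (-0.87 to 1.38, adjusted p = 1.00, edgeR), but -0.05 without E15.5 set 1 and -0.26 without E17.5 set 2. Slc2a2 gave 0.14 ± 0.23 (-0.36 to 0.64, adjusted p = 1.00, edgeR) and Nkx6-1 -0.37 ± 0.60 (-1.69 to 0.96, adjusted p = 1.00, edgeR). Within late sets 1 and 2 the Nkx6-1 value was 0.16, and within late sets 3 and 4 it was -1.65. With 1 set left out Nkx6-1 ran from -0.64 to -0.17, Iapp from 0.23 to 0.72 and Slc2a2 from 0.03 to 0.28.

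Btg2, an antiproliferative immediate early gene, was picked from the lists because it separated the groups. It was at 647 and 474 CPM in the E15.5 sets and at 216, 285, 310, 156, 227, 159 and 199 CPM in the late sets. Every late set lay below both E15.5 sets, as in 4.84% of all genes in either direction. The log2 fold change was -1.30 ± 0.24 (SE, 95% interval -1.83 to -0.77), with an adjusted p of 1.00 by edgeR and 0.00148 by DESeq2. Against the E15.5 Ngn3-GFPhigh cells that met the thresholds (11 of 51), it was -1.34. Fos, another immediate early gene, had 743 and 419 CPM at E15.5 and 53.1 to 952 CPM in the late sets, with overlap.

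Scg5, whose product assists the convertase encoded by Pcsk2, stood at 564 and 702 CPM at E15.5 and between 147 and 432 CPM in the late sets, with no overlap. It too was picked by that separation, which 4.84% of all genes tested shared in either direction. The log2 fold change was -1.14 ± 0.42 (SE, 95% interval -2.06 to -0.22, adjusted p = 1.00, edgeR). Against the E15.5 Ngn3-GFPhigh cells the sign turned, to 0.41. Slc30a8 stood at 362 and 399 CPM at E15.5 and at 1024, 553, 534, 221, 752, 984 and 960 CPM in the late sets. Only E16.5 set 4 lay below the E15.5 sets. For Slc30a8 the log2 fold change was 1.00 ± 0.43 (SE, 95% interval 0.06 to 1.95, adjusted p = 1.00, edgeR), and 1.66 against the Ngn3-GFPhigh cells.

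**Figure D4:**
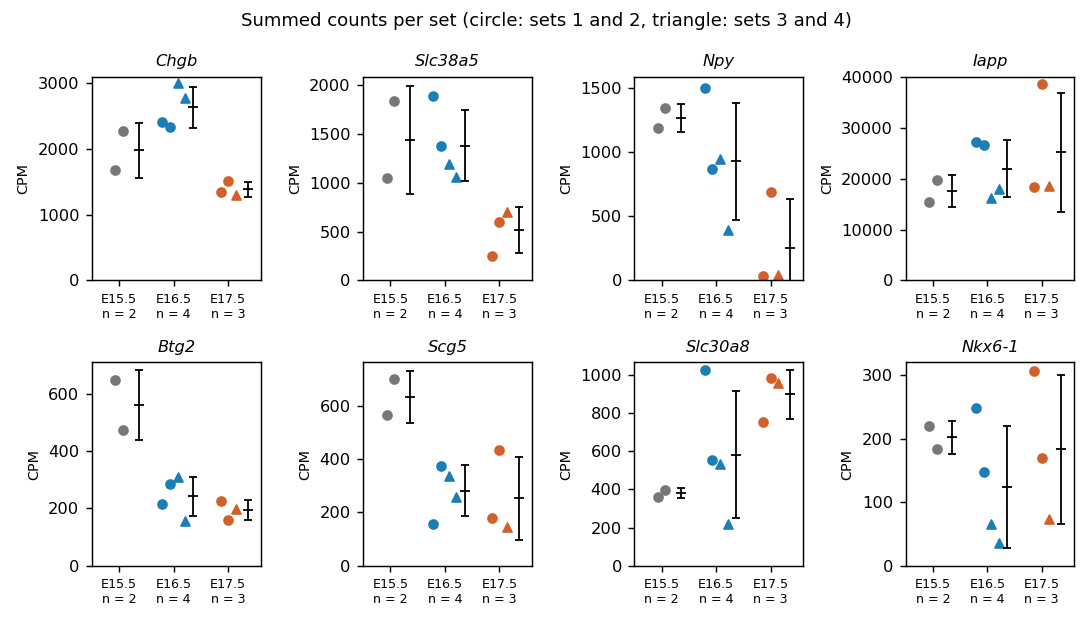
Summed counts of the selected cells in CPM (y axis, linear) per set for 8 genes, at E15.5 (Ins1-RFP+, grey, n = 2), E16.5 (blue, n = 4) and E17.5 (orange, n = 3). Circles are sets 1 and 2, triangles sets 3 and 4, and black bars the mean and SD, of which the part under 0 is not drawn. Chgb and Slc38a5 separate E17.5 from E16.5, and Btg2 and Scg5 the late sets from E15.5, for which they were picked. Nkx6-1 is lower in sets 3 and 4.

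By list, edgeR again called 0 members in each of the 23 lists. The medians were 0.14 over 21 maturation genes, 0.22 over 15 genes of prohormone processing and granules, 0.14 over 24 folding genes and -0.91 over 11 immediate early genes, against -0.02 over all genes tested. Of the folding genes, Hspa5 stood at 4414 and 3945 CPM at E15.5 and at 2492 to 5813 CPM in the late sets. Of the maturation genes, Ucn3 stood at 27.2 and 49.5 CPM at E15.5 and between 9.27 and 62.5 CPM in the late sets. Both ranges overlapped.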

How the data were processed

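Single pancreatic cells were profiled by Smart-seq2 after sorting on reporters. Per the submitters' processing notes, TopHat2 2.1.0, Bowtie2 and HTSeq 0.6.0 were used on mm10; the annotation is not given in the sources used here. The authors deposited whole-number read counts for 40824 genes and 92 ERCC rows, not normalized. Per the labels' protocols, PCR amplified the cDNA and no molecular identifiers are named, so reads are not independent molecules. Their TPM and droplet tables were not used, nor were 1850 of 2195 cell columns.

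CPM was the count over the column total without ERCC. The cells, gene lists and alternatives were chosen with earlier results of these data known. Sets with at least 5 selected cells (3732090 to 33575722 counts) were summed and fitted together as 3 groups with the quasi-likelihood test of edgeR 4.0.16 in R 4.3.3 (filterByExpr, then TMM scaling), with Benjamini-Hochberg adjustment over 14121 genes. Shares were compared by exact permutation (scipy 1.17.1). The fits were tested on simulated counts. DESeq2 1.42.0, limma 3.58.1 (mean log2(CPM + 1) per cell), other thresholds and filters, and sets left out were alternatives. TPM over 8 sets used the gene lengths of the count table. No 2 cells had identical counts.

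Named genes were to be the 10 with the largest log2 fold change in each direction past the threshold, with a mean of 50 CPM and sets that do not overlap. None qualified, so list members are named with their values, and members of the lists were picked for the text by their separation of sets or their role. Against the other cells, the 15 largest and 10 smallest median log2 ratios (pseudocount 1 CPM, same sign in 6 sets) were eligible. Positions are those of GENCODE M21 on mm10. Results on a few genes are not reported here.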

Additional observations from a re-analysis of the deposited data

How the results depend on the processing

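No gene passed edgeR's test in either comparison under any setting with that tool, nor with 1 set left out (0 to 0 genes). Other tools moved the counts, to 35 genes by DESeq2 between the days, and to 24 by DESeq2 and 3 by limma against E15.5. No gene called by limma was on the lists. The cause was not tested. The day difference in share of Ins2-high cells, -0.158 points, turned to 0.704 with an Ins2 threshold of 5000 CPM, 0.771 with 20000 CPM and 2.23 with no Gcg threshold, and ran from -7.51 to 13.2 with 1 set left out (exact p 0.400 to 0.971).

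Whether equal set numbers pair the sets of both days is not in the labels, and correlations over so few sets cannot decide it. Same-numbered sets of the days deviated together with correlations of 0.09, 0.07, 0.05 and 0.04 over 11797 genes, none over 0.1. The 8 correlations within sets 1 and 2 or within sets 3 and 4, of any number, were all positive (0.0132 to 0.0922), and the 8 across that split all negative (-0.0833 to -0.0311). Each gene's mean over the sets of a day was subtracted first, so these positive and negative values are not independent. With that split as a term edgeR called 0 genes and Chgb was at -0.81. This fit and the one with a replicate block took in E17.5 set 3, with 3 cells, and left out the E15.5 sets. They thus differ from the main fit in samples too. With a replicate block for the set number, edgeR called 0 genes and Chgb was at -0.83. The share difference paired by that number is also -0.158 points. As both days have equally many sets, it is so by arithmetic and is no check.

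Of the named genes, signs turned as follows. Between the days Slc2a2 was at -0.31 with 20000 CPM, -0.36 by limma and -0.29 within sets 1 and 2 (-0.060 to 0.24 with 1 set left out). Ins1 was at -0.11 by limma (-0.54 to 0.83) and Iapp ran from -0.33 to 0.49. Against E15.5, Ins1 was at -0.84 by limma and -0.50 within late sets 3 and 4 (-0.26 to 0.68), Slc2a2 at -0.48 by limma, Nkx6-1 at 0.16 within sets 1 and 2, and Scg5 at 0.41 against Ngn3-GFPhigh cells. The cause was not tested. The fits within sets, with the split as a term and against Ngn3-GFPhigh cells, and those without the cell with 88.7% of its counts in 10 genes, were chosen after seeing the data. Chgb, Slc38a5, Npy, Btg2 and Slc30a8 kept their sign in every alternative run. Chgb, Slc38a5 and Btg2 were picked because their sets did not overlap. Leaving out a set could thus hardly turn their sign, and the kept sign lends them no support. In simulated counts at these depths edgeR called 2.99% of day changes of a log2 of 1, placed only in genes above a minimum mean level.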

Other observations

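Genes outside the lists appeared among those that varied like Ins2 over the 87 cells. Tspan13, a tetraspanin gene, had a Spearman rho of 0.61 (-0.01 to 0.60 within sets), and Papss2, which makes the sulfate donor of the cell, one of 0.55 (0.24 to 0.71 within sets). Prss53 and Nucb2 had 0.55 and 0.54. Ccnd2, the cyclin gene known from beta cell growth, was at 100 CPM or more in 31 cells (35.6%), with a maximum of 1707 CPM, and Cdk4 in 84 cells (median 299 CPM). Ghr, the growth hormone receptor gene, was at that level in 71 cells (81.6%), and Prlr, the prolactin receptor gene, in 1. These values are descriptions over cells, with no test.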
